A study of Mus musculus with 3 samples.

Results

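Genes that natural killer (NK) cells and other cytotoxic lymphocytes use to kill and to signal were followed in mouse bone marrow (BM) during treatment with LECT2. They were Gzma, Gzmb, Prf1 and Nkg7, whose products belong to the cytotoxic granule, the receptor genes Klrd1, Ncr1 and Klrb1c, the cytokine receptor gene Il2rb, the chemokine gene Ccl5 and the transcription factor gene Eomes. The set was defined by name, with earlier results of these data known, and all 10 were found among the 17250 gene names in the tables. LECT2 (leukocyte cell-derived chemotaxin 2) is a secreted protein that was studied for its effect on haematopoietic stem cells. C57BL/6 mice aged 6 to 8 weeks, bought as males, received recombinant LECT2 made in Chinese hamster ovary cells by s.c. injection, 300 μg/kg once daily. BM cells were taken after 0, 3 or 5 days, 4 h after the last dose, by flushing the femur, tibia, pelvis and humerus, and the 0-day mice received no LECT2. Poly(A) RNA of each time point was sequenced as 1 library. The sources do not say how many mice went into a library, and a figure legend of the study speaks of mononuclear cells where its methods speak of flushed BM cells.

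NK cells are lymphocytes that kill infected or transformed cells without prior sensitization. They release granules whose perforin opens the way for granzymes, proteases that trigger death of the target cell, and their activity is set by the balance of inhibitory and activating receptors. NK cells develop in the BM under IL-15. Activated CD8+ T cells use the same granule proteins, so Gzma, Gzmb, Prf1, Nkg7, Ccl5 and Eomes do not mark NK cells alone, whereas Ncr1 and, in this mouse strain, Klrb1c are the usual marks of NK cells.

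The start sites of 7 of these genes had an entry in the promoter sequences of RefSeq (build GRCm38.p6), and there was none for Klrd1, Il2rb or Ccl5. The windows run from 250 bases before the start site to 50 bases after it. The 4 granule genes are shown because they were read as a group below. Capitals mark TGTGGT, the core that RUNX factors such as RUNX3 bind, or its reverse complement ACCACA.
Gzma promoter, chr13:113100932-113101231, minus strand: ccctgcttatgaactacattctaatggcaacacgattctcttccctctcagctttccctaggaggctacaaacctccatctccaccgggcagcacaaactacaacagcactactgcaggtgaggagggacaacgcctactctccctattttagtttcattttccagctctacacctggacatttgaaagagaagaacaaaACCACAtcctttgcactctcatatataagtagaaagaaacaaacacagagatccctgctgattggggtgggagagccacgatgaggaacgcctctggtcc
Gzmb promoter, chr14:56262285-56262584, minus strand: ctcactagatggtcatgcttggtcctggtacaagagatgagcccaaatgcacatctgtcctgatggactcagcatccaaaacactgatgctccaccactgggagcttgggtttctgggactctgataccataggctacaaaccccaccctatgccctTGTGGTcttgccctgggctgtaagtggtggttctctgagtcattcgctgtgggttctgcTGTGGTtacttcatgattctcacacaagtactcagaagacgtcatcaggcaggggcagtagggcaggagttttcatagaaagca
Prf1 promoter, chr10:61297586-61297885, plus strand: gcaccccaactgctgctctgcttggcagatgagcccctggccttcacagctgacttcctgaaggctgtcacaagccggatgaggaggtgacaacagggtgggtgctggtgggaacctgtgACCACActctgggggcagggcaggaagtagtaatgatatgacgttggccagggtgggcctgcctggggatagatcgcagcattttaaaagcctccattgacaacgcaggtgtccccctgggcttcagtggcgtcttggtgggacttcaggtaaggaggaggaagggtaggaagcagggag
Nkg7 promoter, chr7:43436888-43437187, plus strand: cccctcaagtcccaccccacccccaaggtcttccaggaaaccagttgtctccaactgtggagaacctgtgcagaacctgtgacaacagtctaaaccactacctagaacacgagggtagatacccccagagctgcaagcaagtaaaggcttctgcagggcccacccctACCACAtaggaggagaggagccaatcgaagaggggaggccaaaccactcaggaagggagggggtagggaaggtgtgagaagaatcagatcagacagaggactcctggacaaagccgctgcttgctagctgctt

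The RUNX core was present in all 4 of these windows. Among the 7 genes with an entry it was found for 6, namely Gzma, Gzmb, Prf1, Nkg7, Klrb1c and Ncr1, and not for Eomes, while 16.8% of all 32851 promoter windows held it. The T-box core GGTGTGA, the kind of site that EOMES and T-BET bind, was found for 1 of the 7 (Nkg7) against 3.98% of all windows. The ETS core GGAAGT was found for 2 (Prf1 and Klrb1c) against 23.8% of all windows, the STAT motif TTCNNNGAA for 2 (Gzmb and Nkg7) against 8.30%, and TATAAA for none against 13.6%. Both strands were searched, none of these motifs contains another, and a match describes letters in the window and not a bound site. Runx3, whose product binds the RUNX core, was itself expressed at 16.9, 14.5 and 19.9 RPKM at 0, 3 and 5 days, and Tbx21, the gene of T-BET, at 1.64, 1.73 and 2.45 RPKM.

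Depth was close among the libraries, at 15523952 reads on genes for 0 days, 15146983 for 3 days and 15514673 for 5 days. Levels are given as deposited RPKM (reads normalized for gene length and for the total of the library), and a change as the log2 ratio of RPKM + 0.1. With 1 library per time point no spread between animals was measured and no test between time points was possible, so each ratio stands with a 95% exact counting interval that covers only the sampling of reads. A gene is called risen or fallen when it differed at least 2-fold. Over the 11144 genes that averaged 1 RPKM or more, the median change was 0.10 at 3 against 0 days, 0.31 at 5 against 0 days and 0.25 at 5 against 3 days. The ratios also followed gene length, from a median of -0.49 in the decile of shortest genes to 0.55 in the decile of longest genes at 3 against 0 days. Neutrophil markers moved far by 5 days, with a median log2 ratio over 10 genes of -0.19 at 3 and -1.84 at 5 against 0 days. With the length trend removed these medians were 0.14 and -1.61. The median of 12 monocyte and macrophage markers was 0.65 and 1.21, or 0.56 and 0.63 with the length trend removed. The part of these cells in the changes below was not tested.

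After 3 days of LECT2 the cytotoxic genes were lower as a group, and after 5 days they stood higher again. Gzma, Klrd1 and Ccl5 fell at least 2-fold by 3 days, that is 3 of 10 genes where 2.41% of all 11325 genes tested did so, and none of the 10 rose, where 4.08% of all genes did. With the length trend removed none of these 3 was past 2-fold and Eomes alone was, where 205 of the 11325 genes were lower. With a pseudocount of 1 only Gzma was, where 120 of the 11325 genes were lower. For 9 of the 10, all but Prf1, the counting interval at 3 against 0 days lay below 0, against 26.2% of all genes. The median over the 10 genes, as a log2 ratio, was -0.68 for 3 against 0 days, -0.10 for 5 against 0 days and 0.54 for 5 against 3 days. Summed over the 10 genes, RPKM came to 296 in the 0-day library, 170 in the 3-day library and 252 in the 5-day library. In whole BM, fewer cytotoxic cells and less of these RNAs per cell cannot be told apart.

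**Figure D1:**
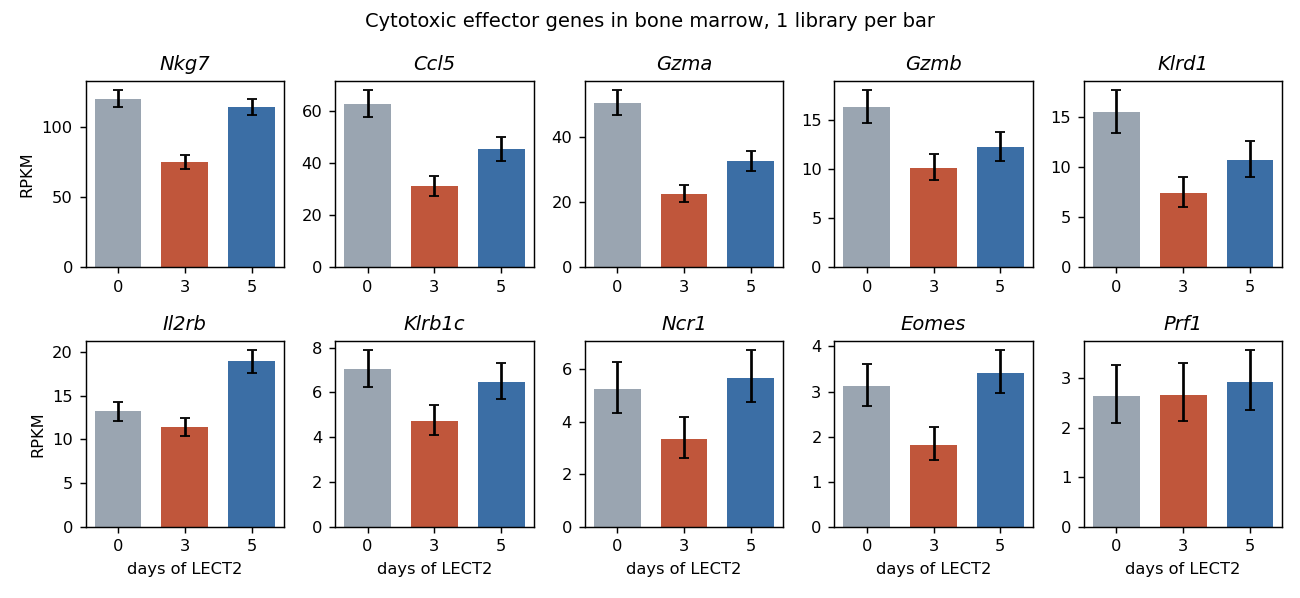
Level of each of the 10 genes (RPKM, each panel with its own linear axis from 0) in the libraries at 0, 3 and 5 days of LECT2; error bars are 95% exact Poisson intervals of the read count and cover counting error only. Every gene except Prf1 was lowest at 3 days, and Il2rb, Ncr1, Eomes and Prf1 were highest at 5 days.

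Among the granule genes Gzma fell at least 2-fold at 3 days on the deposited scale, and Gzmb was lower without passing 2-fold. With the length trend removed neither passed it, at -0.74 and -0.47. At 5 against 0 days both were still below the starting level, neither of them past 2-fold. Gzma, the gene of the tryptase granzyme A (chromosome 13, 113093825 to 113100981, minus strand, 6 exons, GRCm38), was at 50.7 RPKM without LECT2, 22.5 after 3 days and 32.6 after 5 days. It fell by 1.17 on the log2 scale at 3 days (interval -1.37 to -0.98), to 44.3% of the starting level, and was at -0.64 (interval -0.81 to -0.46) at 5 against 0 days. The 3 levels did not overlap in their intervals, and the middle one belonged to the 5-day library. Gzmb, the gene of granzyme B, which cleaves after aspartate and activates caspases (chromosome 14, 56258838 to 56262260, minus strand, 5 exons), was at 16.3, 10.1 and 12.3 RPKM. Its log2 ratio was -0.68 (interval -0.93 to -0.44) at 3 days and -0.41 (interval -0.64 to -0.18) at 5 against 0 days. By 5 days Gzma had regained 35.8% and Gzmb 34.5% of what was lost by 3 days on the deposited scale, but 17.3% and 4.98% with TMM scaling and 49.9% and 14.7% with the length trend removed.

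Prf1, the gene of perforin (chromosome 10, 61297833 to 61304680, plus strand, 3 exons), was at 2.63, 2.67 and 2.92 RPKM, from 84, 83 and 93 reads. Its log2 ratio at 3 days was 0.02 with an interval from -0.44 to 0.47, so no difference was detectable at this depth. Nkg7, the gene of a granule membrane protein needed for degranulation (chromosome 7, 43437073 to 43438249, plus strand, 4 exons), was the most abundant of the 10 at 119.9, 74.7 and 113.8 RPKM. Its log2 ratio was -0.68 (interval -0.80 to -0.56) at 3 days and 0.61 (interval 0.49 to 0.73) at 5 against 3 days. On the deposited scale Nkg7 regained 86.5% of its loss, and its 0-day and 5-day intervals overlapped. With TMM scaling it regained 43.2%, with a log2 ratio of -0.38 at 5 against 0 days, and with the length trend removed it stood above the 0-day level at 0.28.

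Klrd1, Ncr1 and Klrb1c were all lower at 3 days. Klrd1, the gene of CD94, which pairs with NKG2 proteins to read class I MHC (chromosome 6, 129591782 to 129598775, plus strand, 7 exons), was at 15.5, 7.39 and 10.7 RPKM. It fell by 1.05 on the log2 scale at 3 days (interval -1.43 to -0.71) and was at -0.53 (interval -0.85 to -0.22) at 5 against 0 days. It regained 41.1% of the loss, 19.7% with TMM scaling and 62.1% with the length trend removed. Ncr1, the gene of the activating receptor NKp46 (chromosome 7, 4337724 to 4345164, plus strand, 6 exons), was at 5.24, 3.34 and 5.68 RPKM from 119, 74 and 129 reads. Klrb1c, the gene of NK1.1 (chromosome 6, 128778485 to 128789215, minus strand, 6 exons), was at 7.05, 4.72 and 6.47 RPKM. The log2 ratios at 3 against 0 days were -0.63 (interval -1.09 to -0.22) for Ncr1 and -0.57 (interval -0.85 to -0.31) for Klrb1c. At 5 against 0 days both intervals held 0, from -0.25 to 0.49 for Ncr1 and from -0.37 to 0.12 for Klrb1c. The ratio of Klrb1c there, -0.12, became -0.43 with TMM scaling and -0.48 with the length trend removed.

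On the deposited scale Il2rb and Eomes were at or above the starting level at 5 days. Il2rb, the gene of the β-chain through which both IL-2 and IL-15 signal (chromosome 15, 78479256 to 78495271, minus strand, 10 exons), was at 13.2, 11.4 and 18.9 RPKM. The decline at 3 days was the smallest of the 9 on that scale at -0.21 (interval -0.39 to -0.03). With the length trend removed it was -0.33, and the smallest was that of Nkg7 at -0.23. The log2 ratio of Il2rb at 5 against 0 days was 0.52 (interval 0.36 to 0.68), the only one of the 10 whose interval lay above 0, where 55.1% of all genes did. It was 0.21 with TMM scaling and 0.15 with the length trend removed. Eomes, the gene of a T-box factor of mature NK and memory CD8+ T cells (chromosome 9, 118478212 to 118486132, plus strand, 6 exons), was at 3.13, 1.82 and 3.42 RPKM. Its log2 ratio was -0.75 (interval -1.14 to -0.42) at 3 days and 0.87 (interval 0.56 to 1.27) at 5 against 3 days, the highest of the 10 in that comparison. Ccl5, the gene of the chemokine RANTES, which draws T cells and monocytes (chromosome 11, 83525778 to 83530518, minus strand, 3 exons), was at 62.5, 31.0 and 45.1 RPKM. It fell by 1.01 on the log2 scale at 3 days (interval -1.23 to -0.80) and was at -0.47 (interval -0.66 to -0.28) at 5 against 0 days. With the length trend removed these ratios were -0.44 and 0.10, so the fall at 3 days was no longer past 2-fold and the direction at 5 days turned.

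At 5 against 0 days none of the 10 was past 2-fold, where 5.91% of all 11497 genes were lower and 15.5% higher. The intervals of 4 (Gzma, Gzmb, Klrd1 and Ccl5) lay below 0, against 22.3% of all genes. At 5 against 3 days none was past 2-fold either, where 3.45% of 11375 genes were lower and 1.95% higher, and the intervals of 9 of the 10 lay above 0, where 54.4% of all genes did. The comparisons at 3 against 0 and at 5 against 3 days share the 3-day library, so a low value in that library enters both. Lower at 3 days than at 0 and at 5 days were 9 of the 10 genes, and 28.9% of all genes had that order. With the further condition that both intervals exclude 0, the same order held for 11.7% of all genes.

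**Figure D2:**
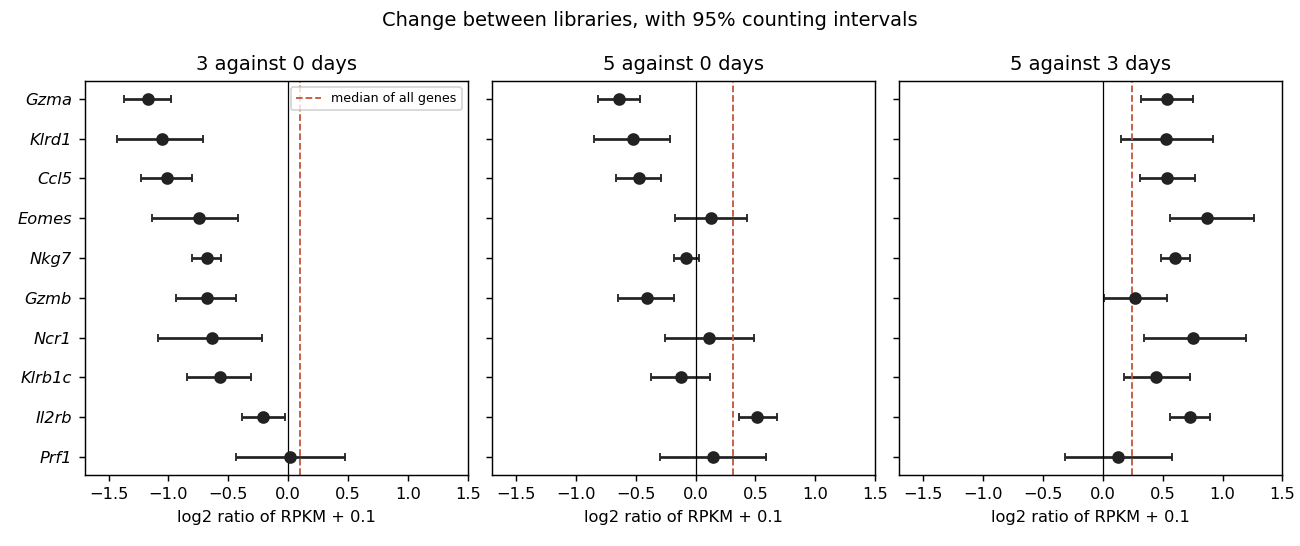
Log2 ratios of RPKM + 0.1 for the 10 genes in the 3 comparisons of libraries; bars are 95% exact counting intervals, the solid line is 0 and the dashed line the median of all 11144 genes (0.10, 0.31 and 0.25). At 3 against 0 days 9 intervals lie below 0, and at 5 against 3 days 9 lie above it.

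The order of the levels was nearly kept. In all 3 libraries Nkg7 led, followed by Ccl5 and then Gzma, each apart from the next by more than the counting intervals, and these 3 genes made up 78.7%, 75.5% and 76.0% of the summed level at 0, 3 and 5 days. At 0 days Gzmb, Klrd1 and Il2rb followed, and neighbours among them had overlapping intervals. At 5 days Il2rb came next after Gzma and stood apart from Gzmb below it. Klrb1c and Ncr1 overlapped in every library, as did Eomes and Prf1, the lowest at 0 and 5 days. Ranked by level among the genes with any read at 0 days, Nkg7 was at percentile 96.1 and Prf1 at percentile 42.1.

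The amount of the decline depended on how length was treated. Gzma, Nkg7, Klrd1 and Ccl5 belong to the decile of shortest genes (up to 1050 bases), whose median change was -0.49 at 3 days and -0.43 at 5 against 0 days. With the trend on length removed, the log2 ratio at 3 days was -0.74 for Gzma, -0.62 for Klrd1, -0.44 for Ccl5 and -0.23 for Nkg7. For Eomes, which lies among longer genes, it became -1.01 and passed 2-fold. No other of the 10 did so on that scale, where 205 of 11325 genes were at least 2-fold lower. The median of the 10 genes was then -0.45 at 3 days, -0.13 at 5 against 0 days and 0.43 at 5 against 3 days. The order of lowest at 3 days was kept by 9 of the 10 with the length trend removed, where 24.2% of all genes had it, and by 9 of the 10 with TMM scaling, where 23.1% had it. A difference of any size counts there, and Gzmb at 5 against 3 days was at only 0.06 and 0.05 on these scales. Some directions changed with the scaling. Prf1, near 0 at 3 days, was at -0.06 there with TMM scaling. At 5 against 0 days, Prf1 (0.14), Ncr1 (0.12) and Eomes (0.13) were below 0 with TMM scaling (-0.16, -0.19 and -0.17), while with the length trend removed Prf1 (-0.05) and Eomes (-0.42) were below 0, Ccl5 moved to 0.10 and Nkg7 from -0.08 to 0.28.

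**Figure D3:**
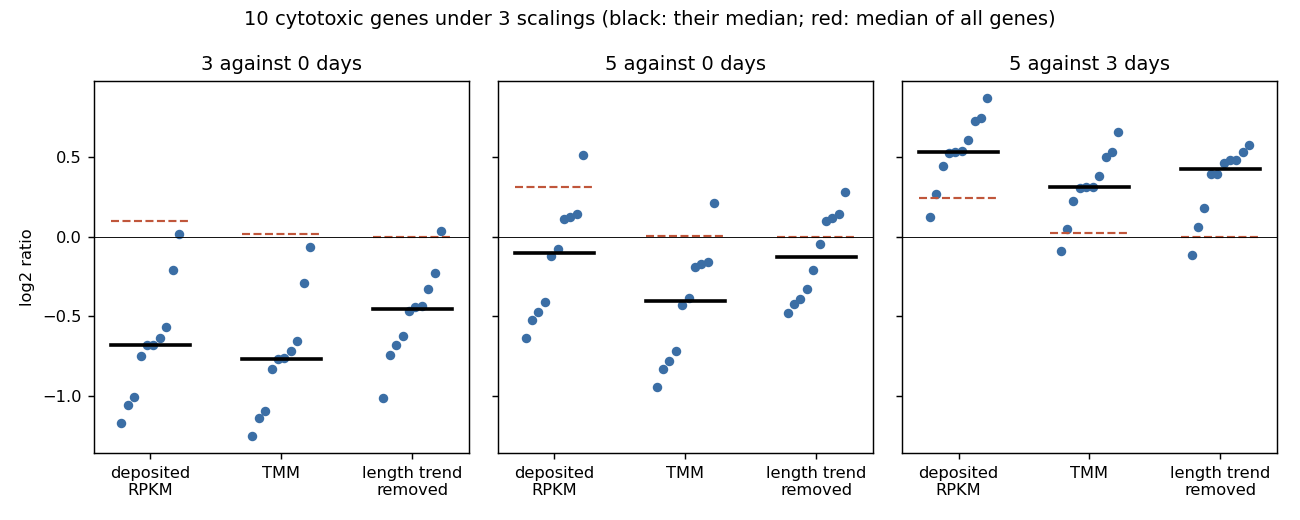
Log2 ratios of the 10 genes (points, sorted within each column) on the deposited scale, with TMM scaling and with the trend on gene length removed; the black bar is the median of the 10 genes and the dashed line that of all genes. At 3 against 0 days the median of the 10 genes is -0.68, -0.77 and -0.45 under the 3 scalings.

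Genes of the same machinery were read next. Of 28 other NK receptors and adaptors 27 had a row, and 21 could be compared at 3 days, of which 3 (Klra3, Klra8 and Klrb1b) fell and 1 (Klrb1f) rose at least 2-fold. Their counting intervals lay below 0 for 12 and above 0 for 3 of the 21. Of all genes 2.41% fell and 4.08% rose at least 2-fold, and 26.2% had an interval below 0 and 41.1% above it. Over the 22 that averaged 1 RPKM or more, the median log2 ratio at 3 days was -0.52, or -0.17 with the length trend removed. Lower at 3 than at 0 and 5 days were 10 of these 22, against 28.9% of all genes. The order held for 9 with TMM scaling, against 23.1%, and for 11 with the length trend removed, against 24.2%. Both intervals excluded 0 for 5 of the 22, against 11.7% of all genes. Klrk1, the gene of the activating receptor NKG2D, was at 6.89, 4.51 and 6.72 RPKM, a log2 ratio of -0.60 (interval -0.86 to -0.36) at 3 days and of 0.56 (interval 0.33 to 0.82) at 5 against 3 days. It lies near Klrd1 in the NK gene complex, and at 5 against 0 days its log2 ratio was -0.04, or -0.34 with TMM scaling and -0.52 with the length trend removed. Klra8, the gene of the activating Ly49H receptor, was at 4.59, 2.13 and 3.39 RPKM, and Klrc1, the NKG2A partner of CD94, at 1.49, 1.98 and 2.54 RPKM from no more than 29 reads. Klrb1f rose from 5.43 to 11.5 and 21.0 RPKM, and so was higher at 3 days than at 0 days, where its relative Klrb1c was lower. At 5 against 0 days, 3 of 23 were past 2-fold lower (Klrb1b, Hcst and Fcer1g), against 5.91% of all genes. Another 3 were past 2-fold higher, Klrb1f and Slamf7 among them, against 15.5%. Slamf7 was at 12.0, 16.8 and 27.0 RPKM, and Fcgr3 at 131, 180 and 131. On the deposited scale 3 adaptor genes fell further from 3 to 5 days. Tyrobp was at 889, 874 and 560 RPKM, Fcer1g at 1706, 1307 and 851, and Hcst at 61.0, 38.6 and 16.4. Reads of the Klra, Klrb1 and Klrc families and of the granzymes could be split between close copies, so single values of these genes are uncertain.

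Genes of other granule proteins and of granule release were taken as separate lists. Of 12 genes of other granule proteins that could be compared, 3 were past 2-fold lower (Gzmc, Ctsw and Gzmk, the last on 2 reads at 3 days), against 2.41% of all genes, and 9 had an interval below 0, against 26.2%. Ctsw, the gene of cathepsin W, a protease of cytotoxic lymphocytes, was at 15.4, 6.86 and 11.7 RPKM, a log2 ratio of -1.15 (interval -1.48 to -0.86) at 3 days and of 0.76 (interval 0.45 to 1.10) at 5 against 3 days. With the length trend removed the ratio at 3 days was -0.87 for Ctsw and -0.77 for Klra8, no longer past 2-fold. Gzmc, a granzyme gene 24.2 kb from Gzmb, had 37, 7 and 7 reads, with a log2 ratio of -2.19 (interval -3.81 to -1.22) at 5 against 0 days and of -0.03 (interval -1.77 to 1.71) at 5 against 3 days. Gzmk had 14, 2 and 9 reads, which is at the floor of 3 reads at 3 days, and Gzmm had 21, 11 and 16. Ctsc, the gene of the protease that activates granzymes and also the serine proteases of myeloid cells, was at 41.1, 77.7 and 134 RPKM, a log2 ratio of 1.70 (interval 1.62 to 1.79) at 5 against 0 days. Of 12 genes of granule release, none was past 2-fold lower at 3 days and 1 was past 2-fold higher, against 4.08% of all genes, and 8 had an interval above 0, against 41.1%, and 3 below it. Their median log2 ratio was 0.42, or 0.06 with the length trend removed. Lyst, the gene of a regulator of lysosome-related organelles, rose from 3.13 to 14.8 and 16.3 RPKM. These genes also serve the granules and vesicles of myeloid cells. Serpinb9, whose product inhibits granzyme B, was at 5.78, 2.86 and 4.69 RPKM, with a log2 ratio of -0.99 (interval -1.31 to -0.73) at 3 days.

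Partners of Il2rb and regulators of the NK lineage were taken as 2 further lists. Il2rg, the common γ-chain, was at 82.0, 67.1 and 77.6 RPKM, while Il15 (3, 4 and 1 reads) and Il15ra (0, 1 and 4 reads) were at the floor. The median log2 ratio at 3 days was 0.29 over 10 genes of the IL-2 and IL-15 pathway, which becomes -0.01 with the length trend removed, and 0.13 over 16 transcription factors of NK and cytotoxic cells, which becomes -0.05 on that scale. The log2 ratio of Tbx21 at 3 days was 0.07 (interval -0.44 to 0.59), where that of its relative Eomes was -0.75.

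Of 14 cytokine and homing genes of NK cells that could be compared at 3 days, 4 fell at least 2-fold (Ifng, Xcl1, Ccl4 and Cxcr6), and 2 rose (S1pr5 and Itga1), against 2.41% and 4.08% of all genes. At 5 against 0 days Ifng, Xcl1, Ccl3 and Ccl4 were past 2-fold lower and S1pr5 and Itga1 past 2-fold higher, against 5.91% and 15.5% of all genes. Fasl, the death ligand, was at 2.36, 1.43 and 2.46 RPKM. Ifng, the gene of interferon-γ, fell from 6.35 RPKM to 1.97 at 3 days and 1.66 at 5 days, log2 ratios of -1.64 (interval -2.27 to -1.14) and -1.88 (interval -2.56 to -1.36). Xcl1, the gene of the chemokine lymphotactin made by NK and CD8+ T cells, fell from 24.5 RPKM to 6.58 and 6.29. With the length trend removed the log2 ratio at 3 days was -1.35 for Ifng and -1.26 for Xcl1, both still past 2-fold. At 5 days Ifng was at 26.1% and Xcl1 at 25.7% of the 0-day level, and on the deposited scale Ccl5 was at 72.1% and Gzma at 64.3%, log2 ratios of -0.47 and -0.64 that became 0.10 and -0.33 with the length trend removed. Ccl3 and Ccl4, chemokine genes also strongly expressed by myeloid cells, were at 32.2% and 11.5%.

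T cells share most of these genes, and their markers were low at 3 days as well. Of 19 T cell markers that could be compared, 6 fell at least 2-fold at 3 days and the intervals of all 19 lay below 0, against 2.41% and 26.2% of all genes. Their summed level was 211, 119 and 135 RPKM. Cd3e was at 7.04, 3.13 and 4.35 RPKM and Cd3d at 10.5, 3.97 and 2.57 RPKM, and none of the 20 T cell markers was at 0 reads in any library. The median log2 ratio of the T cell markers was -0.83 at 3 days, -0.60 at 5 against 0 days and 0.29 at 5 against 3 days. The median of the 10 cytotoxic genes was higher by 0.15, 0.50 and 0.24 in these comparisons, and by 0.36, 0.57 and 0.40 with the length trend removed. Lower at 3 than at 0 and 5 days were 16 of 18 T cell markers on the deposited scale, against 28.9% of all genes, but 10 of 18 with TMM scaling, against 23.1%, and 10 of 18 with the length trend removed, against 24.2%. Under each of these, 9 of the 10 cytotoxic genes kept that order. For Gzmb it rested on ratios near 0 at 5 against 3 days, 0.05 with TMM scaling and 0.06 with the length trend removed. The part of T cells in the levels of the shared genes was not tested.

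**Figure D4:**
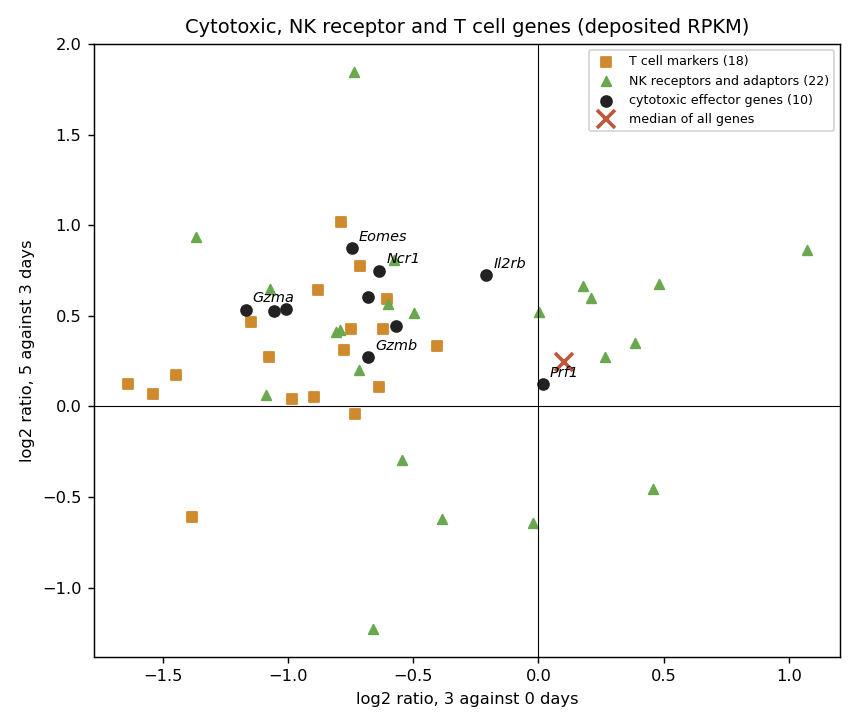
Log2 ratio at 3 against 0 days (x axis) and at 5 against 3 days (y axis) on the deposited scale, for the 10 cytotoxic genes, 22 NK receptors and adaptors and 18 T cell markers; the cross is the median of all genes (0.10 and 0.25). Both axes use the 3-day library; 9 of the 10 cytotoxic genes lie to the left of 0 and above it, and Prf1 lies near the cross.

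Lists of other cell types were read for the same order, which 28.9% of all genes had. Of the related lists, 10 of 22 NK receptors and adaptors, 5 of 10 other granule proteins and 1 of 12 genes of granule release had it. So did 1 of 10 genes of the IL-2 and IL-15 pathway and 5 of 16 transcription factors. Of 8 megakaryocyte and platelet markers, 7 were lower at 3 than at 0 and 5 days, with a summed level of 44.3, 23.5 and 42.8 RPKM over all 11 listed. The order was found for 6 of 10 dendritic cell markers, 4 of 9 basophil and mast cell markers, 1 of 12 B cell markers, 1 of 9 erythroid markers, and none of the neutrophil or monocyte and macrophage markers. With TMM scaling it held for 7 of the 8 megakaryocyte markers, 3 of the 10 dendritic cell markers and none of the basophil and mast cell markers. The part of these cells in the levels of the cytotoxic genes was not tested. The genes whose ratios at 3 and at 5 against 0 days were nearest to the median of the cytotoxic genes were Flt3, Arl2, Mrpl12, Stard10 and Mrpl52, at distances of 0.027 to 0.039 log2 units. Of 6163 genes averaging 10 RPKM or more, 188 lay within 0.25 of that median, or 3.05%. Only 4 of the 10 cytotoxic genes themselves lay that near to it. Flt3, a receptor of early progenitors and dendritic cell precursors, was at 14.5, 9.21 and 13.6 RPKM.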

How the data were processed

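Poly(A) RNA of BM cells was sequenced on an Illumina HiSeq, 1 library at each of 3 time points. The authors deposited 3 tables, 1 for each pair of time points, with the read counts and the RPKM values of every gene. The submitters' processing notes name Cufflinks 1.0.3 and build mm8, and the aligner and the use of strand are not given in the sources used here. Counts and RPKM as deposited had no value in conflict between the tables. The deposited log2 ratios, P values and FDR columns were not used. For a symbol listed more than once, the row of highest average RPKM was kept. Gene IDs gave RefSeq names to 17 of the 28 rows that lacked one.

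Ratios were log2 of RPKM + 0.1. Genes with at least 1 RPKM in either library entered the counts of calls, and those averaging 1 RPKM or more entered the medians. Intervals were exact (Clopper-Pearson) at 95% for the ratio of 2 counts and exact Poisson for a level, and no fold was printed for a gene at or under a floor of 3 reads in a library, although such a gene may enter a count. Reads are not independent molecules, so intervals cover counting error only. Depth was near equal, and 1 read per kilobase was worth 0.0644 RPKM at 0 days. The 10 genes and all lists were chosen with earlier results of these data known. Genes named were the 10, some of the list genes averaging 5 RPKM or more, Gzmk, Gzmm, Gzmc, Klrk1, Klrc1, Klra8, Il2rg, Il15, Il15ra, Serpinb9, Tbx21, Ifng and Fasl, and the 5 genes nearest in pattern. Further list genes above that average were left unnamed, so the named genes are not a full account of their lists. Klra3, Klrb1b, Klre1, Cd3e, Cxcr6, Mcpt8 and Ctsg were named after their values were seen. The rule on counting intervals, the order of lowest at 3 days, the share of a loss regained and the distances to neighbouring genes were also added after seeing the data. Alternatives were TMM scaling (edgeR 4.0.16) and median-of-ratios scaling (DESeq2 1.42.0) of the counts, scaling without the 100 most abundant genes, removal of a lowess trend on gene length (span 0.3, statsmodels 0.14.6), other pseudocounts, minimums and folds, and the sum of all rows of a symbol. Gene positions are from GENCODE M21 (GRCm38), which is not the build of the deposited values. The scripts were tested on simulated data. Python 3.11.15, pandas 2.3.3 and scipy 1.17.1 were used.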

Additional observations from a re-analysis of the deposited data

How the results depend on the processing

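Of the 10 genes, 3 fell at least 2-fold at 3 days. Of all 11325 genes tested, 273 did so. The number of the 10 was 1 with a pseudocount of 1 RPKM, where 120 of 11325 genes fell, and 1 with the length trend removed, where 205 did. It was 7 at a 1.5-fold threshold, which 10% of all genes passed, and 0 at a 4-fold threshold, which 33 of 11325 passed. At 1.5-fold, 1 of the 10 was lower at 5 against 0 days, against 12.3% of all genes, and 4 were higher at 5 against 3 days, against 17.3%, where none was past 2-fold. The median log2 ratio at 5 against 0 days, -0.10, became -0.41 with TMM scaling, -0.40 with median-of-ratios scaling and -0.41 over the 7 genes that passed a minimum of 5 RPKM, and that at 5 against 3 days, 0.54, became 0.31 with TMM scaling. Removing the length trend turned Ccl5 at 5 against 0 days from -0.47 to 0.10. The difference between the medians of the cytotoxic genes and the T cell markers ranged over the scalings, pseudocounts, minimums and row sums from 0.11 to 0.36 at 3 against 0 days, from 0.38 to 0.57 at 5 against 0 days and from 0.24 to 0.40 at 5 against 3 days.

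Of all genes, 680 were at least 2-fold lower and 1786 higher at 5 against 0 days, against 1162 and 816 with TMM scaling and 875 and 581 with the length trend removed, so the share of higher calls went from 72.4% to 41.3% and 39.9%. For 3 against 0 days this share, 62.9%, was 48.9% with TMM scaling, and for 5 against 3 days, 36.1% as deposited, it was 10.6% and 11.8% under these 2 alternatives and 71.6% at a 1.5-fold threshold. Other pseudocounts, minimums and folds moved further counts over all genes by more than 1.5 times.

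No paired analysis was possible because each time point has 1 library. For the same reason no replicate was left out, and the spread between mice is unknown. The effect of LECT2 and a difference between the mice or the handling of the days cannot be told apart. Prf1, Gzmm and Klrc1 had few reads, and their intervals are wide.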

Other observations

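Within 200 kb of Klrd1 on chromosome 6 lie other receptor genes of the NK gene complex. Klre1, the gene of an inhibitory or activating receptor that pairs with KLRI proteins, was at 5.21, 3.13 and 3.62 RPKM at 0, 3 and 5 days, from 75, 44 and 52 reads. Its log2 ratio was -0.72 (interval -1.31 to -0.18) at 3 days and 0.20 (interval -0.40 to 0.82) at 5 against 3 days.

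Within 200 kb of Gzmb on chromosome 14 lie proteases of other blood cells. Mcpt8, a protease gene of basophils, was at 239, 164 and 181 RPKM at 0, 3 and 5 days, and Ctsg, a protease gene of neutrophil precursors, at 213, 192 and 291 RPKM. 

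Itga1, the gene of the integrin CD49a found on tissue-resident NK cells and on stromal cells, had 59, 264 and 758 reads, a log2 ratio of 3.49 (interval 3.30 to 4.09) at 5 against 0 days. S1pr5, the gene of a receptor that NK cells use to leave the BM, had 28, 78 and 105 reads, a log2 ratio of 1.39 (interval 0.87 to 2.19) at 3 days. Both were past 2-fold higher at 3 and at 5 against 0 days, as 4.08% and 15.5% of all genes were. Ncr1 and Klrb1c were at -0.63 and -0.57 at 3 against 0 days, and at 0.12 and -0.12 at 5 against 0 days. Ratios at 5 against 0 days also followed gene length, up to a median of 0.85 in the decile of longest genes. Itga1 and S1pr5 were named after their values were seen.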
